A study of Rattus norvegicus with 20 samples.

Results

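The corticosteroid receptors and a set of their target genes were described in the left ventricle and brain of rats with stress cardiomyopathy (SCM). The 7 genes were taken by their Ensembl rat identifiers from 24160 features in the count table, and all 7 were present and passed the filter on low counts. They are the receptors Nr3c1 (ENSRNOG00000014096) and Nr3c2 (ENSRNOG00000034007) and the targets Fkbp5 (ENSRNOG00000022523), Sgk1 (ENSRNOG00000011815), Tsc22d3 (ENSRNOG00000056135), Zbtb16 (ENSRNOG00000029980) and Cdkn1a (ENSRNOG00000000521). The symbols came with the identifiers, and the pairing was not checked against an annotation. The animals were male Sprague-Dawley rats of 250 to 300 g. The 5 SCM rats were immobilized, given in the labels as 6 hours lasting 7 days without a statement of the daily schedule, and the labels name no such treatment for the 5 control rats. Each rat gave 1 brain and 1 left ventricle library, so p-values for stress reflect the spread between rats. No region or cell type of the brain is named in the labels. In such bulk tissue, fewer cells of a type and less RNA per cell cannot be told apart. Total counts ran from 22386526 to 36251990 per library, and the smallest count of any member was 219, for Cdkn1a in a control brain.

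Corticosterone, the main glucocorticoid of the rat, is released from the adrenal cortex under stress. It binds the glucocorticoid receptor, encoded by Nr3c1, and the mineralocorticoid receptor, encoded by Nr3c2, which then enter the nucleus and act on transcription by binding DNA or other factors. Fkbp5 encodes a co-chaperone of the receptor complex that lowers the receptor's affinity for hormone, and its induction forms a negative feedback loop. Sgk1 encodes a kinase known for the control of ion transport, and Tsc22d3 encodes GILZ, an anti-inflammatory mediator of glucocorticoids. Zbtb16 encodes the transcriptional repressor PLZF, and Cdkn1a encodes the cell cycle inhibitor p21, which is also a classical target of p53.

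Promoter sequences are shown for 3 targets. Fkbp5 passed the test of stress in both tissues, Cdkn1a passed it in left ventricle only, and Tsc22d3 barely differed in left ventricle. RefSeq (GRCr8) entries covering 250 bases before to 50 after a start held 10 promoters for 5 of the 7 genes. The sequences below run 5′ to 3′ on the gene's strand and leave out the bases after the start. Fkbp5 lies at chr20:6543556-6543805 on the minus strand, with 3 GC boxes (GGGCGG) in capitals. Another GC box of this entry lies after the start and is not shown. Tsc22d3 lies at chrX:109010035-109010284 on the minus strand, with a TATA box (TATAAA) in capitals that starts 44 bases before the start of transcription. It is 1 of 3 RefSeq promoters of this gene, and the other 2 hold GC boxes and no TATA box. Cdkn1a lies at chr20:7150682-7150819 on the plus strand, with a p53 half-site in capitals that starts 201 bases before the start. Its stretch of 138 bases ends 112 bases before that start, where the annotated extent of the gene begins, and the bases between are not shown.
Fkbp5: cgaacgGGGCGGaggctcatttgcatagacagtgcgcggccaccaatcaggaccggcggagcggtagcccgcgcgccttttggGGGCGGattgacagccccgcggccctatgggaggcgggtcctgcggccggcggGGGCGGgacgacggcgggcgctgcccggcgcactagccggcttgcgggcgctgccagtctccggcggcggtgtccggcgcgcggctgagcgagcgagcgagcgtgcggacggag
Tsc22d3: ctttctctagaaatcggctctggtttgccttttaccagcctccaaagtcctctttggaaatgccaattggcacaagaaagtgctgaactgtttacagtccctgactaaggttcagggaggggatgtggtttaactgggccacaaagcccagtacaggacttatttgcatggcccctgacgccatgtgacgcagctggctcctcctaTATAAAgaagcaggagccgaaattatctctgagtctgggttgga
Cdkn1a: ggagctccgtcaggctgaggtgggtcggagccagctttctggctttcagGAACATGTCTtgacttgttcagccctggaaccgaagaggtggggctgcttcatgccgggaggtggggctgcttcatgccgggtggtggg
The Fkbp5 stretch had 76% G and C. The Tsc22d3 stretch shown had 49.2%, and the other 2 promoters of that gene had 50% and 74.4%. On both strands, the palindromic glucocorticoid response element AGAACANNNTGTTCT was found in 0 of the 10 member promoters and in 0.0149% of 33469 promoters. Its half-site AGAACA, which overlaps it, was also in 0 of 10, against 20.7% of all promoters. The GC box was in 7 of 10 (33.1% of all promoters), the TATA box in 3 of 10 (14.2%) and the p53 half-site in 1 of 10 (7.98%). Promoters of the same gene were counted apart, with 3 each for Sgk1 and Tsc22d3 and 2 for Nr3c1. Those with a GC box belonged to Fkbp5, Nr3c1, Sgk1 and Tsc22d3, and those with a TATA box to Sgk1 and Tsc22d3. The absence of the glucocorticoid response element and its half-site from these windows says nothing of more distant sequence.

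Both receptors were read more in the left ventricle than in the brain after TMM scaling. When libraries were scaled by total counts alone, this order reversed for Nr3c1 in SCM rats. In control rats Nr3c1 then differed by only 0.07 (adjusted p = 0.503, edgeR). Levels are given as normalized CPM, the reads of a gene per 1000000 reads of the TMM-scaled library. The level of Nr3c1 in control left ventricle was 151, 141, 138, 119.7 and 112 CPM in rats 1 to 5, and in control brain it was 74.7, 79.6, 88.4, 86.8 and 73.9 CPM. The means were 132 ± 16.2 CPM (SD, n = 5) and 80.7 ± 6.73 CPM (SD, n = 5). All control left ventricle values lay above all control brain values in this scaling. The share of all genes that separate so was not counted, and 79.7% of 15909 genes passed this tissue comparison. The log2 difference of brain from left ventricle was -0.72 (SE 0.09, adjusted p = 0.000176, edgeR). In SCM rats it was -0.42 (SE 0.09, adjusted p = 0.00209, edgeR).

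For Nr3c2 the control left ventricle gave 29.6, 25.5, 24.8, 37.2 and 19.8 CPM and the control brain 11.97, 13.0, 11.2, 11.4 and 9.71 CPM. Again no control brain value reached a control left ventricle value in this scaling, and the share of all genes that separate so was not counted. Brain differed from left ventricle by -1.24 on the log2 scale in control rats (SE 0.13, adjusted p = 4.06e-05, edgeR) and by -1.10 in SCM rats (SE 0.12, adjusted p = 3.58e-05, edgeR).

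Fkbp5, Tsc22d3, Zbtb16 and Cdkn1a were likewise lower in brain and Sgk1 was higher, in control rats and in SCM rats alike. Sgk1 was higher in brain by 1.61 in control rats (SE 0.20, adjusted p = 0.000119, edgeR) and by 1.47 in SCM rats (SE 0.12, adjusted p = 4.79e-06, edgeR). Zbtb16 differed by -2.15 in control and -2.40 in SCM rats. Cdkn1a differed by -1.95 in control and -2.65 in SCM rats, Fkbp5 by -1.45 and -1.41, and Tsc22d3 by -1.22 and -1.04. All 7 members passed in control rats, where 79.7% of 15909 genes passed, and all 7 in SCM rats, where 79.4% of 15764 did, so passing set no member apart from most genes. The median log2 difference of all genes was 0.12 in control and 0.16 in SCM rats.

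These tissue differences depended on how the libraries were scaled. The 10 most read genes took 27.2% to 33.0% of counts in left ventricle and 7.76% to 11.1% in brain. With total counts alone, the median difference of all genes became 0.91 in control and 1.00 in SCM rats. Nr3c1 then differed by 0.07 in control rats (adjusted p = 0.503, edgeR) and was higher in brain by 0.42 in SCM rats (adjusted p = 0.0016, edgeR). The control values of Nr3c2 then overlapped between the tissues, as did those of Nr3c1. Under the same scaling Nr3c2 and Tsc22d3 kept their direction and no longer passed in SCM rats, at -0.26 and -0.21. Sgk1 was higher and Fkbp5, Zbtb16 and Cdkn1a lower in brain under both scalings. With total counts alone their differences, in this order, were 2.40, -0.65, -1.36 and -1.16 in control rats. In SCM rats they were 2.30, -0.58, -1.56 and -1.82. Nr3c2 and Tsc22d3 then differed by -0.45 and -0.42 in control rats.

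**Figure D1:**
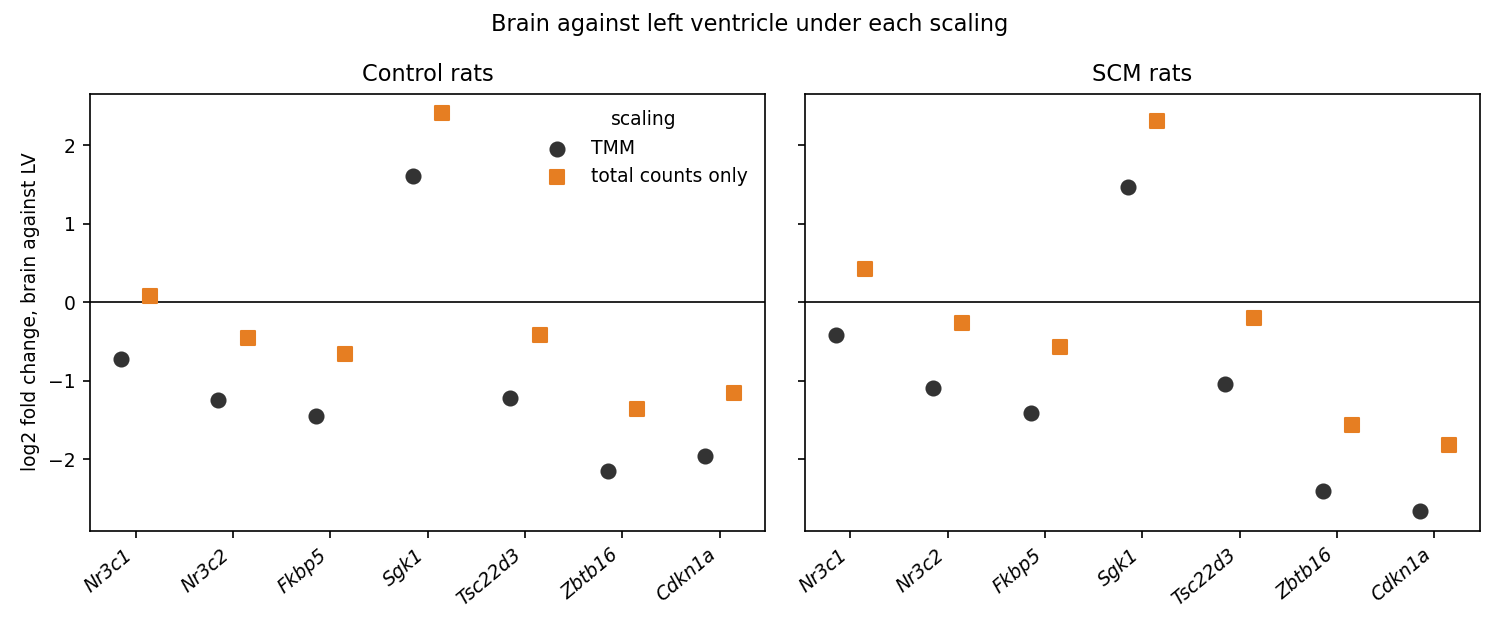
Log2 fold change of brain against left ventricle (LV, vertical axis) for the 7 genes in control rats and SCM rats, with circles for TMM scaling and squares for total counts only. Every square lies above its circle, and Nr3c1 crosses 0, from -0.72 to 0.07 in control rats and from -0.42 to 0.42 in SCM rats.

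The ratio of the receptors does not depend on library scaling. Per library, the log2 ratio of Nr3c1 to Nr3c2 counts was 2.29 ± 0.34 (SD, n = 5) in control left ventricle and 2.82 ± 0.18 (SD, n = 5) in control brain. In SCM rats it was 2.28 ± 0.21 and 2.95 ± 0.14 (SD, n = 5 each). The brain ratio was the higher in 5 of 5 control rats, by 0.52 on average, and in 5 of 5 SCM rats, by 0.68. The exact paired permutation test gave p = 0.0625 in each condition, the smallest that 5 pairs allow. Stress changed the ratio by -0.02 in left ventricle (exact permutation p = 0.921, n = 5 and 5) and by 0.14 in brain (exact permutation p = 0.230, n = 5 and 5), and neither change passed the test.

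Neither receptor passed the test of stress in either tissue. At an unadjusted p under 0.05 both were lower in left ventricle (12.3% of all genes) and neither in brain (7.44% of all genes). In SCM left ventricle Nr3c1 was at 119.6, 93.5, 98.5, 105 and 97.4 CPM, with 4 of the 5 SCM rats below every control and the other inside the control range. The log2 difference was -0.34 (SE 0.10, unadjusted p = 0.00536, adjusted p = 0.0699, edgeR). It passed with DESeq2 (adjusted p = 0.0311), with total counts only (0.0258, edgeR), with 1 fit of all libraries (0.0105, edgeR) and without control rat 5 (0.0282, edgeR).

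Nr3c2 in SCM left ventricle was at 20.7, 23.8, 21.4, 22.1 and 18.1 CPM, overlapping the controls in all but 1 rat. Its log2 difference was -0.35 (SE 0.15, adjusted p = 0.194, edgeR). With 1 rat left out this difference ran from -0.45 to -0.21, the smallest without control rat 4. In SCM brain Nr3c1 stood at 74.1, 81.2, 77.0, 76.9 and 74.8 CPM, inside the control range, with a log2 difference of -0.08 (SE 0.07, adjusted p = 0.622, edgeR). Brain Nr3c2 was at 9.40, 8.99, 10.1, 10.9 and 10.2 CPM in SCM rats, 2 of them below every control, with a log2 difference of -0.21 (SE 0.10, adjusted p = 0.361, edgeR).

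**Figure D2:**
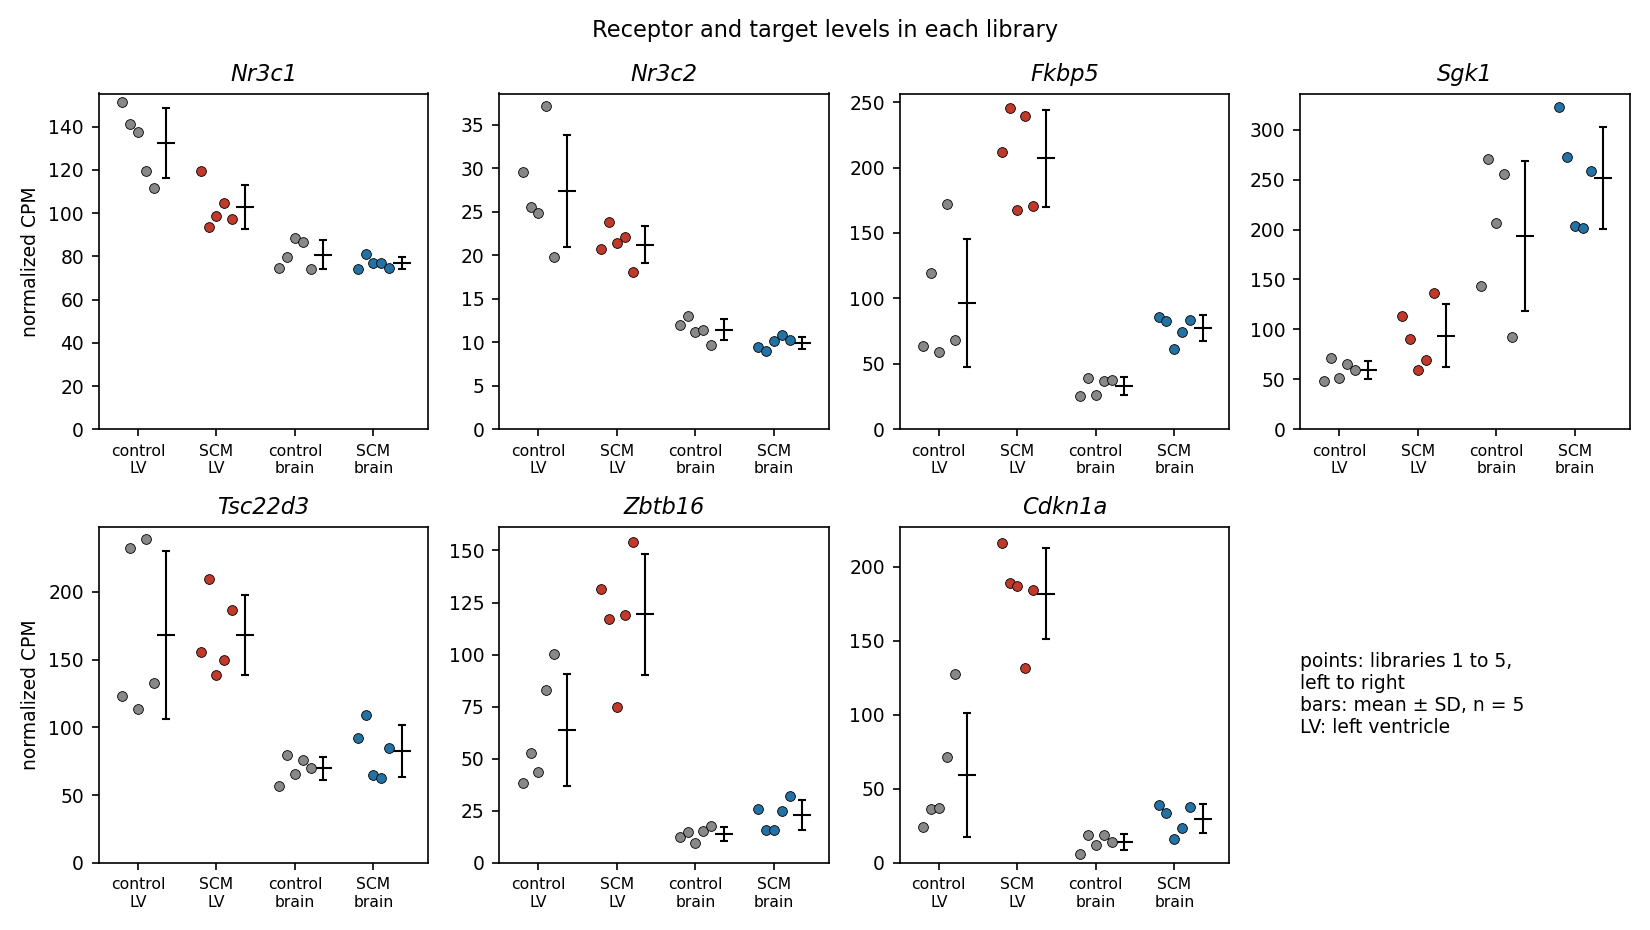
Normalized CPM (vertical axis) of each gene in the 4 groups, with 1 point per library in replicate order and bars for the mean ± SD (n = 5). In this TMM scaling, SCM points lie above all control points for Cdkn1a in left ventricle (132 to 216 against 24.0 to 127 CPM) and for Fkbp5 in brain (61.0 to 85.6 against 25.3 to 39.0 CPM).

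Across the 4 groups the mean of Nr3c1 was 132 CPM in control left ventricle, 103 in SCM left ventricle, 80.7 in control brain and 76.8 in SCM brain, and that of Nr3c2 was 27.4, 21.2, 11.5 and 9.92 CPM in the same order. Fkbp5 ran from 207 CPM in SCM left ventricle through 96.4 in control left ventricle and 77.4 in SCM brain to 33.0 in control brain, and the values of control left ventricle and SCM brain overlapped. Cdkn1a had the same order (182, 59.3, 29.9 and 13.9 CPM), with overlap of the same neighbours. For Zbtb16 the order was again the same (119, 63.7, 22.9 and 13.8 CPM), and control left ventricle and SCM brain did not overlap, though they did with total counts only. Tsc22d3 had 168 CPM in both left ventricle groups, 82.5 in SCM brain and 69.6 in control brain. Sgk1 alone was led by the brain, with 251.7 CPM in SCM and 194 in control rats against 93.8 and 59.3 in left ventricle, and control brain overlapped SCM left ventricle. With total counts only the order of the means differed for Nr3c1, Fkbp5 and Tsc22d3. Nr3c1 was then at 108 CPM in control brain, 103 in control left ventricle, 100.1 in SCM brain and 75.2 in SCM left ventricle. The Fkbp5 mean of 101 CPM in SCM brain lay above the 74.5 CPM of control left ventricle. Tsc22d3 was at 131 CPM in control left ventricle, above the 123 CPM of SCM left ventricle.

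Among the targets, Fkbp5 and Cdkn1a rose in the SCM left ventricle and Fkbp5 rose in the SCM brain. In left ventricle 2 of 5 targets passed as higher, where 2.33% of 13954 genes did, and in brain 1 of 5 passed, where 0.100% of 16002 genes did. No target passed as lower, as 2.88% of all genes did in left ventricle and 0.0750% in brain. The study's further limit, an absolute log2 fold change over 2, was set on genes that changed in both tissues. Applied here to each tissue alone, it was passed by no member, against 0.229% of all genes in left ventricle and 0% in brain. All 5 fold changes were positive in both tissues, with a median of 0.93 in left ventricle against -0.01 over all genes and of 0.72 in brain against 0.00. At an unadjusted p under 0.05, 4 of 5 targets were higher in left ventricle (10.9% of all genes) and 3 of 5 in brain (6.90% of all genes). Fkbp5 was the 1 member that passed as higher in both tissues, as 0.0299% of 13379 genes did, and Fkbp5, Zbtb16 and Cdkn1a were the 3 with an unadjusted p under 0.05 as higher in both (2.08% of genes).

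Fkbp5, the co-chaperone of the feedback loop, was at 63.4, 119.6, 58.7, 172 and 67.9 CPM in control left ventricle. In SCM left ventricle it was at 212, 246, 168, 239 and 171 CPM. Control rat 4 lay within the SCM range and 3 of 5 SCM rats lay above every control. The difference was 1.12 on the log2 scale (SE 0.28, 2.17-fold, adjusted p = 0.0429, edgeR). When rats were left out in turn, the call held in 2 of 10 fits, those without control rat 4 and without SCM rat 3, with adjusted p from 0.00749 to 0.0947 (edgeR), while the fold change stayed between 0.98 and 1.44 on the log2 scale.

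Control brain gave 25.3, 39.0, 26.2, 36.6 and 37.8 CPM for Fkbp5, and SCM brain 85.6, 82.5, 61.0, 74.4 and 83.8 CPM. Every SCM brain lay above every control brain, as was the case for 2.22% of all genes. Fkbp5 was higher by 1.22 on the log2 scale (SE 0.14, 2.34-fold, adjusted p = 0.00356, edgeR) and ranked 4 of 16002 genes by p-value. Its adjusted p stayed under 0.05 in all 18 other fits, the highest being 0.0364 (edgeR, 1 fit of all libraries). Its left ventricle and brain differences, 1.12 and 1.22, were close in size, and the interaction was -0.03 (SE 0.23, adjusted p = 1.00, edgeR).

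Cdkn1a, which encodes p21, was at 24.0, 36.6, 37.0, 71.7 and 127 CPM in control left ventricle and at 216, 189, 187, 132 and 184 CPM in SCM left ventricle. The lowest SCM rat was just above the highest control, and 3.13% of all genes separated in this way. With total counts only the groups overlapped, as SCM rat 4 was at 97.3 CPM and control rat 5 at 101.9 CPM. It rose by 1.64 on the log2 scale (SE 0.38, 3.11-fold, adjusted p = 0.0313, edgeR). With rats left out in turn it passed in 4 of 10 fits, those without control rats 4 or 5 or SCM rats 3 or 4 (adjusted p from 0.0034 to 0.0776, edgeR).

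Brain Cdkn1a was at 6.15, 18.7, 11.7, 18.9 and 13.8 CPM in control rats and at 38.9, 33.8, 16.0, 23.2 and 37.6 CPM in SCM rats. All SCM rats but rat 3 were above every control. The log2 difference was 1.10 (SE 0.29, unadjusted p = 0.00264, adjusted p = 0.155, edgeR), which did not pass.

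Zbtb16, which encodes PLZF, was at 38.4, 52.9, 43.8, 83.0 and 100.4 CPM in control left ventricle and at 132, 117, 74.8, 119 and 154 CPM in SCM left ventricle. SCM rat 3 fell among the controls and the other 4 lay above them. Its log2 difference was 0.93 (SE 0.27, adjusted p = 0.0658, edgeR), past the limit in 5 of 18 other fits, DESeq2 among them (adjusted p = 0.00644).

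In the brain Zbtb16 was at 12.2, 14.7, 9.38, 15.3 and 17.6 CPM in control rats and at 25.9, 15.9, 15.8, 25.1 and 32.1 CPM in SCM rats. Of the SCM brains, 3 were above every control. The log2 difference was 0.72 (SE 0.21, adjusted p = 0.182, edgeR), and DESeq2 gave an adjusted p of 0.0332.

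Sgk1, the kinase of ion transport, overlapped between groups in both tissues. Control left ventricle gave 48.8, 71.4, 51.6, 65.8 and 59.2 CPM and SCM left ventricle 113, 90.2, 59.5, 69.4 and 136 CPM, with rats 1, 2 and 5 above every control. The log2 difference was 0.68 (SE 0.21, adjusted p = 0.0814, edgeR). Control brain gave 143, 271, 206, 255 and 92.2 CPM and SCM brain 323, 273, 204, 201 and 258 CPM. These brain values overlapped for 3 of 5 SCM rats, and the log2 difference was 0.37 (SE 0.25, adjusted p = 0.499, edgeR). With 1 rat left out it ran from 0.20 to 0.52.

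Tsc22d3, which encodes GILZ, had the smallest edgeR fold change of the targets in both tissues. In brain without control rat 5, Sgk1 was the smaller (0.20 against 0.24 on the log2 scale). In control left ventricle it was at 123, 232, 113, 239 and 133 CPM and in SCM left ventricle at 155, 209.9, 139, 149.8 and 187 CPM, with all SCM rats inside the control range. The log2 difference was 0.02 (SE 0.22, adjusted p = 0.970, edgeR), and its sign turned with total counts only. Control brain gave 56.9, 79.2, 65.7, 76.0 and 70.3 CPM and SCM brain 92.1, 109, 64.6, 62.5 and 84.6 CPM, with 3 SCM rats above every control. The brain difference was 0.24 (SE 0.15, adjusted p = 0.460, edgeR).

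**Figure D3:**
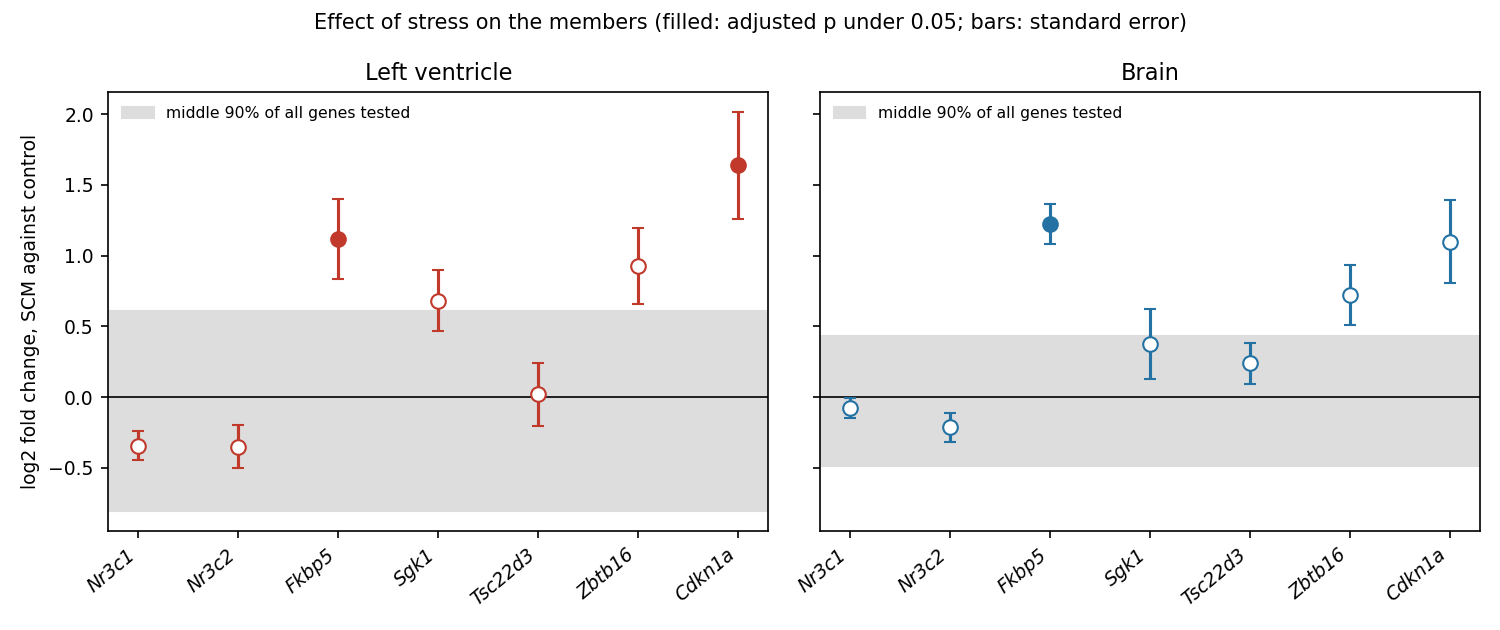
Log2 fold change of SCM against control (vertical axis) for each gene in left ventricle and brain, with standard errors from edgeR, filled points for an adjusted p under 0.05 and a grey band for the middle 90% of all genes tested (-0.80 to 0.61 in left ventricle, -0.49 to 0.43 in brain). Cdkn1a and Fkbp5 in left ventricle and Fkbp5 in brain are filled, and Zbtb16 and Sgk1 in left ventricle and Zbtb16 and Cdkn1a in brain lie above the band with open points.

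Whether the targets rose together was read rat by rat. In left ventricle, SCM rats 1 and 2 had 4 of 5 targets above every control, where 21.9% and 18.8% of all genes tested were, and rats 4 and 5 had 3 (18.5% and 18.0% of all genes). Rat 3 had 1, Cdkn1a (15.8% of all genes). In brain, rat 1 had 5 of 5 targets above every control (21.7% of all genes), rats 2 and 5 had 4 (30.5% and 25.2%), rat 4 had 3 (20.3%) and rat 3 had 1, Fkbp5 (19.0%). SCM rat 3 had the fewest targets above every control in both tissues, and it also had the lowest share of all genes there. With total counts only, a scaling examined for these counts after the data were seen, rats 3 and 4 each had 2 targets above every control in left ventricle (13.2% and 12.1% of all genes) and rat 2 had 3 in brain (21.1%). The other counts were the same, over all-gene shares of 7.47% to 13.8% in left ventricle and 17.0% to 22.1% in brain, where rat 3 now had the highest share.

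**Figure D4:**
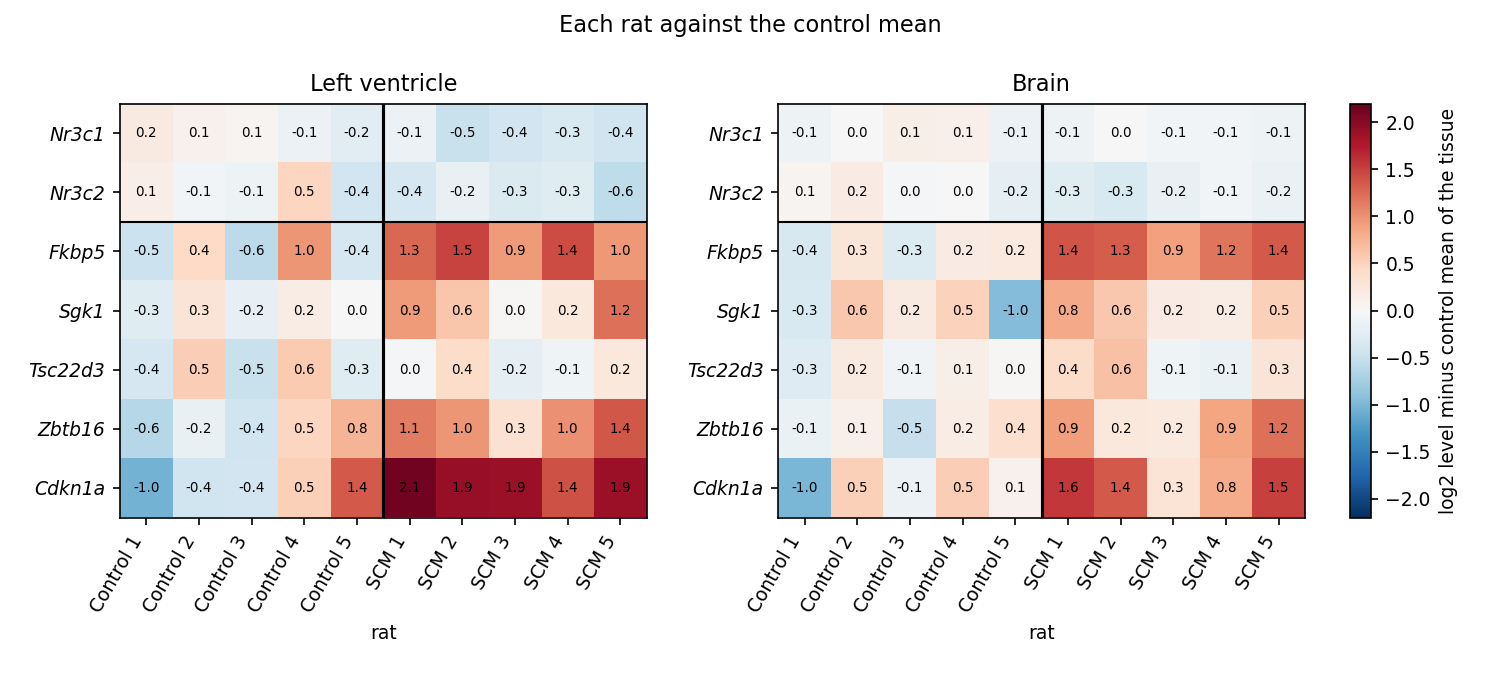
Log2 level of each gene (rows) in each rat (columns) minus the control mean of the same tissue, in red where higher and blue where lower. Fkbp5 is higher in all 5 SCM rats in both tissues (0.93 to 1.48 in left ventricle, 0.90 to 1.39 in brain), whereas Tsc22d3 in left ventricle runs from -0.20 to 0.40 in SCM rats.

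The effect of stress was compared between tissues with the rat as a block, on the same libraries as the comparisons above. None of the 7 members passed this interaction, where 0.754% of 16720 genes passed, and 1 of the 7, Nr3c1, had an unadjusted p under 0.05 (8.30% of all genes in that direction). Its interaction was -0.29 (SE 0.13, unadjusted p = 0.0416, adjusted p = 0.334, edgeR), with the left ventricle the lower. For Cdkn1a the left ventricle difference exceeded the brain difference by 0.71 (SE 0.36, unadjusted p = 0.0691, adjusted p = 0.404, edgeR). With standard errors of 0.13 to 0.36 over the members, these values do not show that stress acted alike in both tissues.

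Brain and left ventricle of 1 rat were then compared after the group means were removed. Over 10 rats, Pearson's r between the tissues was 0.76 for Zbtb16 (Spearman's rho 0.82, exact permutation p = 0.00611 and 0.00167, adjusted p for r = 0.459) and 0.67 for Tsc22d3 (rho 0.68, exact permutation p = 0.0122 and 0.00625, adjusted p for r = 0.499). Neither passed after adjustment over 13379 genes, of which 0 passed and 1048 had an unadjusted p under 0.05. For Fkbp5 r was 0.60, for Sgk1 0.47 and for Cdkn1a 0.47, with exact permutation p of 0.148, 0.0765 and 0.258 and rho of 0.58, 0.52 and 0.49. The receptors gave 0.29 for Nr3c2 and -0.18 for Nr3c1 (exact permutation p = 0.544 and 0.656, n = 10). Without the 2 rats farthest from the median of the brain values, r was 0.61 for Zbtb16, 0.68 for Tsc22d3, 0.49 for Fkbp5, 0.67 for Sgk1, 0.22 for Cdkn1a, -0.09 for Nr3c2 and -0.17 for Nr3c1. The r of Cdkn1a fell to 0.11 without control rat 1, and that of Sgk1 was 0.74 without control rat 5. The median r over all genes was 0.13.

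**Figure D5:**
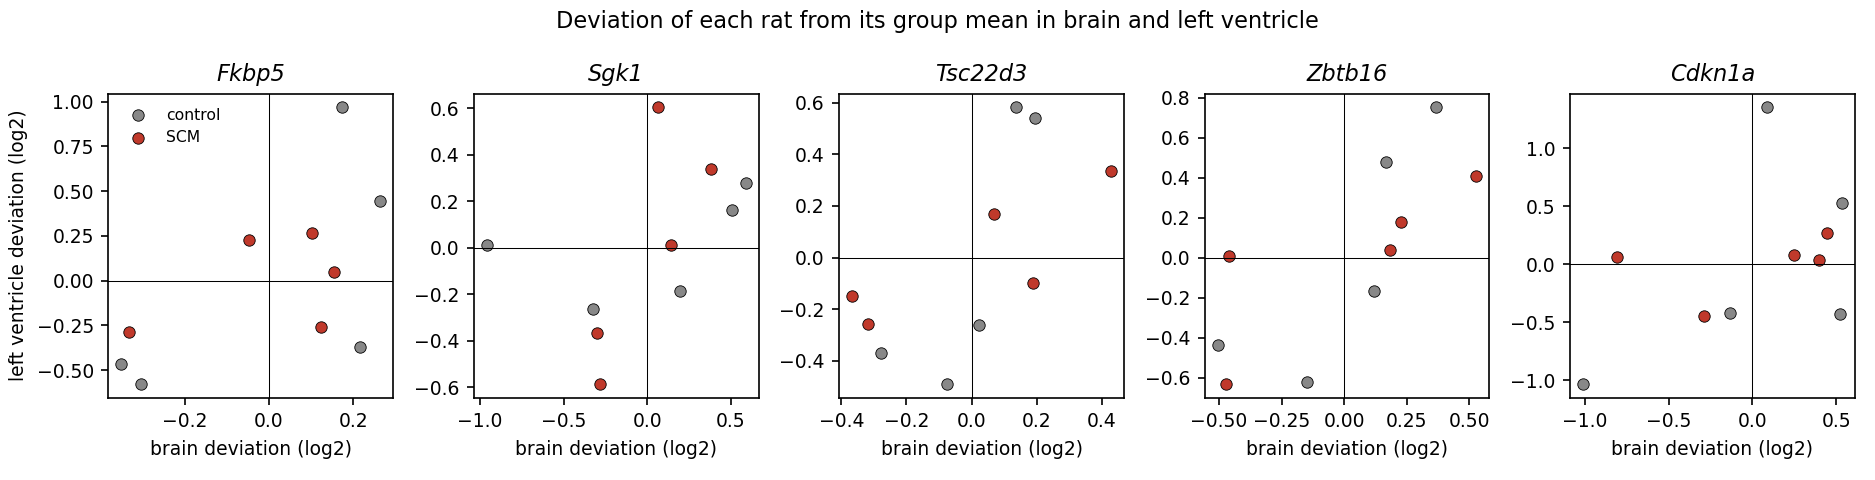
Deviation of each rat from its group mean, as log2 normalized CPM, in brain (horizontal axis) and left ventricle (vertical axis) for the 5 targets, with control rats in grey and SCM rats in red. Zbtb16 (r = 0.76) and Tsc22d3 (r = 0.67) run upward to the right, and Cdkn1a (r = 0.47) is more scattered.

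The members were also set against every other gene by the correlation of log2 normalized CPM over the 20 libraries after removal of each tissue's mean, a description in which the effect of stress is kept. Zbtb16 and Cdkn1a were close to each other (r = 0.85). Cdkn1a ranked 4 of 13378 genes by likeness to Zbtb16, and Zbtb16 ranked 6 by likeness to Cdkn1a. Fkbp5 had r = 0.78 with Cdkn1a and r = 0.77 with Zbtb16. Tsc22d3 was nearer to Fkbp5 (r = 0.59) than to Zbtb16 (r = 0.34) or Cdkn1a (r = 0.38). Nr3c1 ran opposite to Zbtb16 (r = -0.74) and Cdkn1a (r = -0.72). The gene most like Zbtb16 was ENSRNOG00000021318 (r = 0.94), and the gene most like Nr3c1 was ENSRNOG00000048800 (r = 0.92).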

How the data were processed

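RNA of 10 rats, 5 of them with SCM, was sequenced from brain and left ventricle, giving 20 libraries. The authors deposited whole-number read counts for 24160 features, 23760 of them with an Ensembl rat gene identifier, not normalized and with replicates kept apart. The submitters' processing notes name HISAT2, SAMtools, StringTie and the mRatBN7.2 build. Their versions, the gene annotation, the use of strand and the batch of each library are not given in the sources used here.

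Groups, rats and replicate numbers came from the sample labels. Genes were filtered with filterByExpr (minimum count 10, minimum total 15) and scaled by TMM. The quasi-likelihood test of edgeR 4.0.16 in R 4.3.3 was run on each tissue's 10 libraries for the effect of stress. The comparison of the tissues and the interaction of stress with tissue had the rat as a block. Titles give the brain and left ventricle of 1 rat the same name, and in 10 of 10 rats the brain deviations from the group mean, taken across genes, correlated best with those of the same rat's ventricle within its condition (r from 0.073 to 0.216). P-values were adjusted over all genes tested by the Benjamini-Hochberg method, and a gene passed at an adjusted p under 0.05. Standard errors were derived from the fold change and its F statistic. Normalized CPM used TMM factors over all 20 libraries, and log2 values had a pseudocount of 0.5. Receptor ratios and same-rat correlations were tested by exact two-sided permutation tests. Alternatives were RLE scaling, total counts only, DESeq2 1.42.0, limma-voom (limma 3.58.1), other filters, a single fit of all libraries, a fold limit, the replicate block and leaving out each rat. The edgeR tests were checked on simulated counts with known fold changes, drawn without an effect of the rat. The permutation tests, DESeq2 and limma-voom were not checked in this way.

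The 7 genes and the lists were chosen with earlier results of these data known. All members are described, and for each member the most similar genes were sought by Pearson r. Lists of other pathway genes and of cell type markers were drawn up by symbol. They were not analysed here, because no table used here pairs the Ensembl identifiers with symbols. The labelled tissues were for the same reason not checked against markers. Exon lengths were not used, so levels are compared between groups and never between genes. Promoter sequences and motifs were read from RefSeq entries on the GRCr8 build.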

Additional observations from a re-analysis of the deposited data

Results flagged for a closer look

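One value stood apart from its group. The log2 ratio of Nr3c1 to Nr3c2 in control left ventricle 4 was 1.69, and the other 4 control left ventricles lay between 2.36 and 2.49. Its gap to the nearest library was 0.829 of the range, past the limit of 0.71 for 5 samples. In 32 groups tested, chance alone would give about 1.6 such values. That library had 119.7 CPM of Nr3c1 and 37.2 CPM of Nr3c2, the highest Nr3c2 level of all 20 libraries. Without it the effect of stress on the ratio in left ventricle was -0.17 (exact permutation p = 0.159, n = 4 and 5).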

How the results depend on the processing

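The number of members passing in left ventricle, 2 by edgeR, was 5 with DESeq2 (Nr3c1, Fkbp5, Sgk1, Zbtb16 and Cdkn1a), 4 with 1 fit of all 20 libraries, 3 with total counts only (Nr3c1 was added) and 0 with an absolute log2 fold change over 2. Over all genes tested the share passing also moved, from 5.21% to 11.6%, 10.7%, 7.15% and 0.229%. Leaving out a rat gave 0 to 4: 0 without control rats 1, 2 or 3 (2.04%, 3.91% and 2.05% of all genes) or SCM rats 1, 2 or 5 (2.88%, 2.35% and 2.18%), 1 without SCM rat 4 (2.92%), 2 without control rat 4 (4.16%), 3 without control rat 5 (7.07%) and 4 without SCM rat 3 (6.77%). In brain, 1 member passed, 2 with DESeq2 and 0 with the fold limit, while the share of all genes went from 0.175% to 2.51% and 0%, and 1 passed with any single rat left out, over 0.0247% to 0.692% of all genes. With the replicate block, 3 members passed in left ventricle (Zbtb16 was added, adjusted p = 0.0395, edgeR) and 1 in brain, against 2.25% and 0.0937% of all genes. Same-numbered control and SCM deviations correlated by -0.07 to 0.15 in left ventricle and by -0.23 to 0.14 in brain. Such values cannot tell whether the replicate numbers pair control with SCM rats. Brain and left ventricle of the same rat reached only 0.073 to 0.216. Without the rat in the fit, the tissue and interaction counts of members did not change. The left ventricle ratio of the receptors changed by -0.17 to 0.056 when a rat was left out, so its sign is not fixed. Tsc22d3 in left ventricle was -0.092 with total counts only and -0.093 to 0.19 without 1 rat. Nr3c1 in brain against left ventricle was 0.073 in control and 0.42 in SCM rats with total counts only. The Fkbp5 interaction was 0.0086 with RLE scaling, 0.0095 with DESeq2 and -0.18 to 0.17 without 1 rat. Same-rat r ran from -0.69 to 0.071 for Nr3c1 and from -0.32 to 0.45 for Nr3c2 without 1 rat, and from 0.11 to 0.66 for Cdkn1a and from 0.40 to 0.74 for Sgk1. The causes of these changes were not tested.

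Over all genes, 727 passed in left ventricle, 1625 with DESeq2, 314 with the replicate block, 1789 with 1 fit of all libraries, 32 with the fold limit and 287 to 997 without 1 rat. In brain 28 passed, 402 with DESeq2, 18 with total counts only, 15 with the block, 0 with the fold limit and 4 to 112 without 1 rat. For the interaction 126 passed, and 10 to 560 under the alternatives. With total counts only the split of higher and lower genes was 188 and 810 in left ventricle, against 325 and 402, and 9971 and 3310 for brain against left ventricle in control rats, against 6780 and 5904, and 10230 and 3065 in SCM rats, against 6888 and 5633. This scaling moved the left ventricle median of all genes to -0.13. Levels per length of exon were not run, as no exon lengths were used.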

Other observations

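The spread among control left ventricles was wide for several targets. The coefficient of variation over rats was 70.7% for Cdkn1a, 50.9% for Fkbp5, 42.1% for Zbtb16 and 36.9% for Tsc22d3 in control left ventricle, against 16.9%, 17.8%, 24.2% and 17.5% in SCM left ventricle. Sgk1 went the other way, with 16.0% in control and 33.7% in SCM left ventricle. Control rats 2 and 4 had the 2 highest control levels of both Fkbp5 and Tsc22d3 in left ventricle, and control rats 4 and 5 the 2 highest of Zbtb16 and Cdkn1a. In brain the spread was 12.6% in control and 23.5% in SCM rats for Tsc22d3, 22.8% and 30.7% for Zbtb16, 38.9% and 20.2% for Sgk1, 38.4% and 33.2% for Cdkn1a, and 20.2% and 13.1% for Fkbp5. These differences in spread were not tested.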
